A study of Caenorhabditis elegans with 44 samples.

Results

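The mir-85 hairpin of *Caenorhabditis elegans* gives rise to a 5p strand, miR-85-5p, and a 3p strand, miR-85-3p. Both were chosen by their names from the table of raw counts, and they make up 2 of its 437 mature strands. They were picked out because the onset and plateau of the 3p strand and the late fall of the 5p strand had been seen in these same counts, so those features are described here without a test. Small RNA libraries were made from total RNA of whole wild-type N2 worms, each library from a pooled population grown at 25 °C without treatment and collected once an hour, at 5 h through 48 h from the time when first-stage larvae had been placed on food. There was 1 library per hour (44 in all) and no replicate, so the scatter of neighbouring hours stands in for a replicate error and every p-value measures scatter within this single time course. The library total had a median of 10678292 counts and ranged up to 14672735 at 31 h, with a shallow library of 1669246 counts at 38 h and 7059421 counts in the next lowest. A normalised count is the raw count scaled to the mean library total. Ranges in parentheses after single values are 95% intervals that cover counting error only, Poisson for levels and exact binomial for strand ratios. All libraries are of whole animals, in which more cells that make a strand and more of it per cell cannot be told apart.

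MicroRNAs are short RNAs that guide Argonaute proteins to partly matching messenger RNAs, which lowers the output of those messages. A hairpin precursor is cut by Dicer into a short duplex, from which one strand, the guide, is loaded and kept, while the other, the passenger, is usually released and broken down. In worms the best known examples, lin-4 and let-7, time the order of larval events, and the level of a mature strand at any hour depends both on how fast it is made and on how fast it is lost.

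In the WBcel235 assembly the hairpin gene cel-mir-85 (WBGene00003313) spans chromosome II from 8393553 to 8393658 on the plus strand, a length of 106 bases. The annotation places the 5p strand at 8393575 to 8393597 (23 nt) and the 3p strand at 8393617 to 8393640 (24 nt), with 19 bases between them. The hairpin lies within an intron (8393337 to 8393659, 323 bases) of the protein-coding gene F49E12.8, which is transcribed from the opposite strand, and it overlaps none of the 5 exons of that gene. It fills the right end of that intron, with 216 intron bases on its left and 1 on its right. An annotated noncoding RNA of 76 bases, F49E12.14 (8393569 to 8393644), covers both mature strands on the opposite strand. Reads were counted only on the strand of the annotated microRNA. No other microRNA gene lies close by on the chromosome, the nearest being cel-mir-57 at 542956 bp and cel-mir-236 at 1363276 bp.

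miR-85-3p was the abundant strand and is called the guide here. Its mean over the 44 libraries was 46623 normalised counts, which placed it 35th of the 437 strands, and it was counted in all 44 libraries, with 2123193 counts in all. miR-85-5p, the passenger, had a mean of 62.8 normalised counts and was 217th, with 3129 counts in all. It was at 0 in the 15 libraries of 5 to 19 h and was counted in each of the other 29. The means of the strands differed 743-fold, and miR-85-3p was the higher strand in all 44 libraries.

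The course of the guide had 4 parts, namely a low level up to 17 h, a climb from 18 to 32 h, a high level at 33 to 37 h and a slow decline to 48 h. From 5 to 17 h its lowest value was 21.1 normalised counts (16 h), its median 26.1 and its highest 38.1 (13 h). The variance of its normalised counts over these 13 libraries was 1.11 times their mean, close to the 1 that counting error alone gives for unscaled counts. At 18 h the guide stood at 45.4 normalised counts (34.2 to 59.1) and at 19 h at 54.3. Both lay above all earlier libraries. It reached 234 (201 to 271) in the 20 h library, then 576 and 1413 in those of 21 and 22 h. The step from 19 to 20 h, at 1.96 on the log2 scale of normalised counts with 8 added, was the largest hourly change of the series for this strand, and its level increased 26.0-fold from 19 to 22 h.

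The climb then slowed before it gained speed again. The guide held 2209, 3360, 4839 and 6373 normalised counts in the 4 libraries of 23 to 26 h, a 4.51-fold increase in the 4 h from 22 h. The following 4 libraries, of 27 to 30 h, gave 10129, 17369, 31771 and 49327. The guide then measured 75845 at 31 h and 108848 at 32 h. The slope of a straight line through the log2 values was 1.33 per h over 18 to 22 h, 0.55 per h over 22 to 26 h and 0.70 per h over 26 to 32 h, which are doubling times of 0.750 h, 1.83 h and 1.43 h. Residual SDs around these lines were 0.46, 0.09 and 0.12 log2 units in that order, so the 1st line is a rough mean rate. The smallest hourly change between 20 and 32 h was 0.40 at 26 h. From 20 to 32 h the guide increased 465-fold, and from 17 to 33 h 4843-fold.

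The high level was flat within a narrow band. In hourly order from 33 to 37 h the guide measured 130543, 135016, 129082, 137118 and 135035 normalised counts. The mean of these 5 libraries was 133359 with an SD of 3388, so the order of these hours is not resolved beyond the scatter between neighbours. The highest value, at 36 h, was 1.30% of all microRNA counts of its library. By rank among the 437 strands the guide was 217th in the 5 h library, 117th in that of 22 h and 19th in that of 34 h.

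The guide was lower at the later hours, which fall in adulthood. In hourly order it held 121694, 123469, 106442 and 112007 normalised counts from 38 to 41 h, and 102431, 110261 and 97107 from 42 to 44 h. It dropped to 59032 at 45 h and was back at 87724 in the next library, ending with 75011 and 76693 at 47 and 48 h. All libraries of 38 to 48 h lay below those of 33 to 37 h, and the 45 h library was the lowest after 30 h. The slope over 37 to 48 h was -0.08 per h on the log2 scale, a halving time of 12.2 h. The median of 42 to 48 h was 87724, which is 65.0% of the reference level of 135035 (the median of the 3 highest libraries of the strand) and 1.54-fold below it. At 48 h the guide was 30th of the 437 strands and made up 0.725% of the counts.

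**Figure D1:**
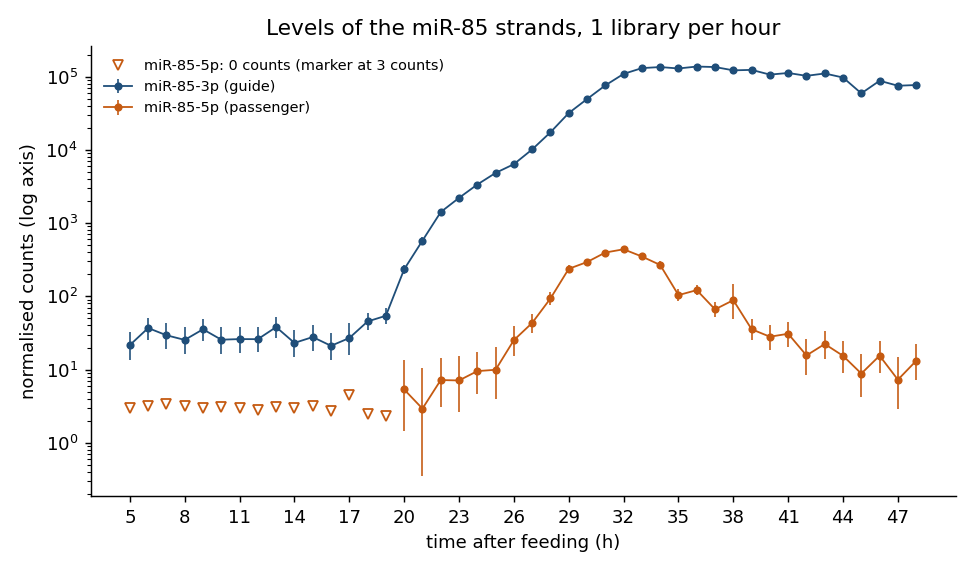
Normalised counts of miR-85-3p and miR-85-5p (log axis) against time after feeding in hours, 1 library per point with 95% Poisson intervals, and open triangles at the level of 3 counts where miR-85-5p had 0 counts. The guide stays between 21.1 and 38.1 up to 17 h and is near 133359 at 33 to 37 h, while the passenger is first counted at 20 h and is highest at 439 at 32 h.

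The passenger had no count in 158784506 counts summed over 5 to 19 h, which allows up to 0.200 normalised counts (3 counts of that sum). The guide had 474 counts in the same libraries. At the strand ratio of 29 to 32 h, 474 guide counts correspond to 2.43 passenger counts, under the 3 counts that a count of 0 allows. The 0 counts thus set a lower bound of 158 guide counts per passenger count over 5 to 19 h, and ratios at or above that of 29 to 32 h could not be told apart at this depth. The first passenger reads appeared at 20 h, the hour of the steepest guide step, with 4 counts or 5.35 normalised counts (1.46 to 13.7). The libraries of 21 to 25 h held 2, 8, 6, 10 and 7 passenger counts in that order, or 2.93, 7.19, 7.11, 9.53 and 9.94 normalised counts. Counts this low do not resolve an order among these hours.

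From 26 h the passenger climbed faster than the guide. In hourly order it measured 25.2, 43.3, 93.5 and 237 normalised counts from 26 to 29 h. The next 2 libraries gave 294 and 396, and that of 32 h gave 439 (401 to 479), its highest value. From 26 to 29 h the passenger increased 9.41-fold and the guide 4.99-fold, whereas from 29 to 32 h the passenger increased 1.85-fold and the guide 3.43-fold. The slope of the passenger over 25 to 31 h was 0.91 per h on the log2 scale, a doubling time of 1.10 h. Most of the increase of the passenger was thus over by 29 h, when it had passed 50% of its reference level of 396, and the guide passed 50% of its own at 31 h. The passenger was at or above 90% of its reference at 31 and 32 h only. The guide reached 90% of its own at 33 h, and the passenger and the guide passed 10% at 27 h and 28 h. Both had passed 1% at 22 h.

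The passenger fell while the guide was still at its highest. From 33 to 37 h it measured 350, 268, 104, 122 and 66.3 normalised counts in hourly order. The shallow 38 h library gave 14 counts, or 88.7 (48.5 to 149), an interval that takes in the 37 h value. The 3 libraries of 39 to 41 h gave 35.5, 28.1 and 30.8. From 35 h the passenger stayed below 50% of its reference and from 39 h below 10%. Over 36 to 41 h its values were 28.1 to 122 and over 42 to 48 h they were 7.27 to 22.3 with a median of 15.4. This median rests on 7 to 21 counts per library and is 3.89% of the reference, a 25.7-fold difference (20.9-fold with TMM scaling). The slope over 32 to 42 h was -0.47 per h on the log2 scale, a halving time of 2.14 h. The values of the guide were 106442 to 137118 over 36 to 41 h and 59032 to 110261 over 42 to 48 h.

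These late values are shares of a pool that itself changed. The miR-35 family is made in the germ line and in embryos, and its 8 guides together took up 0.140% of counts at 34 h. Their share was 0.490% and 3.17% in the libraries of 36 and 40 h, and 8.55% and 13.2% in those of 44 and 48 h. With those guides left out of the totals the fall of the guide was 1.38-fold in place of 1.54-fold and that of the passenger 24.2-fold, and with TMM factors they were 1.20-fold and 20.9-fold. The hours at which both strands passed 10% and the guide passed 50% were the same under all 3 scalings, while the guide passed 1% at 23 h with TMM factors and at 22 h with the others.

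Among the 272 strands with a mean of at least 10 counts, the guide had the 4th lowest level at 5 to 15 h relative to its own reference (0.0193%, median of all strands 53.3%), after 3 strands with a median of 0. Those 3 were its own passenger, miR-786-5p and miR-246-5p. The level of the guide at 42 to 48 h was 189th from the bottom. The passenger had the 6th lowest level at 42 to 48 h relative to its reference, where the median of all 272 was 44.4%. The pair was chosen for this pattern, so these places are a description.

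The ratio of the strands within a library does not depend on the scaling between libraries. It was 43.8 guide counts per passenger count at 20 h, 196 in the 22 h library and 487 in the 25 h library, each resting on 4 to 8 passenger counts. Summed over hours, the ratio was 200 (129 to 328) at 20 to 23 h, 273 (221 to 343) at 24 to 27 h and 195 (186 to 204) at 29 to 32 h. The first interval takes in the last value, whereas the interval of 24 to 27 h lies above it. These intervals leave out the scatter between hours. Single libraries gave 234 to 487 at 24 to 27 h and 134 to 248 at 29 to 32 h, so these windows overlap by library. The lowest ratio after 20 h was 134 (117 to 153) at 29 h. The ratio then climbed through 248, 373 and 503 in the libraries of 32, 33 and 34 h to 1243 in that of 35 h.

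The ratio went on climbing after the guide had stopped. The libraries of 36 to 39 h gave 1128, 2035, 1373 and 3474 in that order, and the last library, of 48 h, gave 5823 (3470 to 10652). Summed counts gave 1418 (1252 to 1611) for 36 to 38 h, 3612 (2945 to 4480) for 39 to 41 h and 6199 (5096 to 7619) for 42 to 48 h, 3 intervals that do not overlap. From 29 to 32 h to 42 to 48 h the passenger-to-guide ratio changed by -4.99 on the log2 scale. This was the 3rd lowest of the 102 hairpins with both strands tested, next to miR-235 below it and lin-4 above it, and the median hairpin changed by -0.10. The pair was chosen for the late fall of its passenger, so this place is a description.

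**Figure D2:**
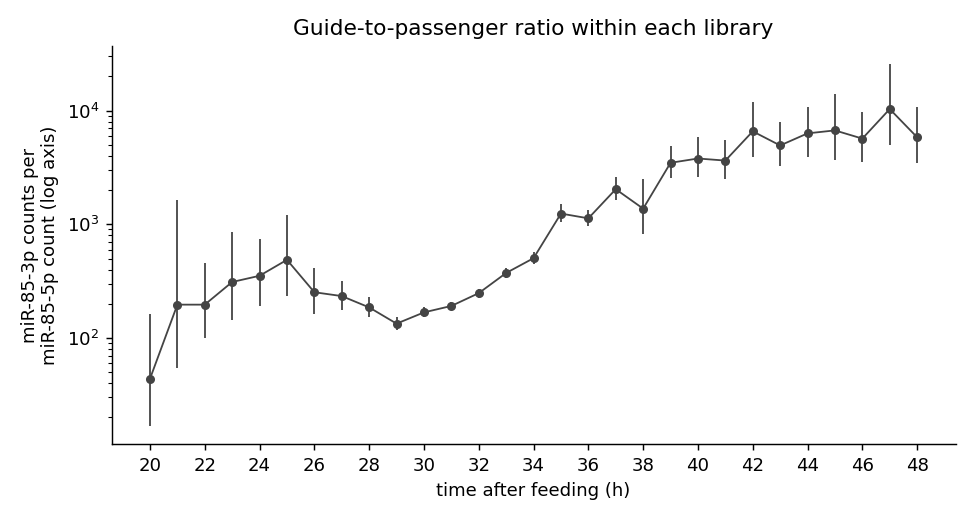
Counts of miR-85-3p per count of miR-85-5p within each library from 20 to 48 h (log axis, 95% intervals for counting error). The ratio is lowest after 20 h at 134 at 29 h, is 1243 at 35 h and stands between 3474 and 10318 from 39 h on.

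Many worm microRNAs oscillate with the molting cycle, and a 7 h rhythm was tested for both strands over 8 to 35 h on top of a straight trend in time. In edgeR's quasi-likelihood test, 39 of the 272 strands (14.3%) passed, with a p under 0.05 after Benjamini-Hochberg adjustment and an amplitude of 0.5 log2 units or more, and 0 of the 2 miR-85 strands were among them. The amplitude of the guide was 0.49 ± 0.31 (SE; edgeR adjusted p = 0.625). That of the passenger was 0.69 ± 0.30 (edgeR adjusted p = 0.202). Without adjustment the edgeR p-values were 0.322 and 0.0692, and neither strand was called by DESeq2 (adjusted p = 0.499 and 0.541) or by limma (adjusted p = 0.801 and 0.839). The passenger passed the test without the 35 h library, at 0.75 (edgeR adjusted p = 0.0192), and with periods of 7.5 h and 8 h, at 0.87 and 1.02 (edgeR adjusted p = 0.0472 and 0.0212). The passenger had 0 counts in the 12 libraries of 8 to 19 h and reached the minimum mean count only through later hours, so its amplitude and these calls rest on the hours of its climb and are not independent of the pattern for which the pair was chosen. A climb of this size is not a straight line on the log scale. With a spline trend the amplitudes were 0.13 ± 0.14 for the guide and 0.37 ± 0.14 for the passenger (edgeR adjusted p = 0.808 and 0.130). Neither passed the test, and both amplitudes were under the 0.5 log2 units that a call needs at any p.

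The strand ratio was tested for the same rhythm with the library as a factor. Of the 102 hairpins, 21 (20.6%) were called in edgeR, and mir-85 was not, with an amplitude of 0.29 ± 0.25 (edgeR adjusted p = 0.688). The ratio had no passenger count in 12 of the 28 libraries, those of 8 to 19 h, so the fit rests on the 16 libraries of 20 to 35 h and says nothing of a rhythm before them. A p that misses the threshold does not show that there was no rhythm. With a period of 8 h the ratio amplitude was 0.73 (edgeR adjusted p = 0.049998, just under the threshold). The 16 libraries of 20 to 35 h take in the climb and the start of the passenger fall for which the pair was chosen. The call at 8 h is thus not independent of that pattern. With the period of 7 h the amplitude was 0.09 with a spline trend (edgeR adjusted p = 0.881). It was 0.18 in limma (limma adjusted p = 0.879).

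The level before the climb was also tested for a trend over 5 to 10 h. In edgeR, 27 of the 272 strands (9.93%) changed by at least 1 log2 unit with an adjusted p under 0.05 in either direction. The guide was not called, with a fitted change of 0.09 ± 0.40 log2 units over the window (edgeR adjusted p = 0.914), and the sign of that change turned with TMM factors, with DESeq2 size factors, and without the 5 h or the 9 h library, at -0.31 and -0.10. The passenger had 0 counts in these 6 libraries and gave no value.

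The study described guide strands by a model that takes the passenger level as a measure of how fast the guide is made and removes the guide at a fixed rate. Fitted to the 44 libraries on the linear scale, the model gave a half-life of 8.14 h for miR-85-3p (7.67 h to 8.66 h with single libraries left out, jackknife SE 0.949 h) and left 1.47% of the variance unexplained. Among the 102 hairpins this was the 6th lowest unexplained share on the linear scale (median 19.9%), and the half-life was 59th from the bottom (median 6.94 h). The place of the unexplained share draws on the climb and plateau for which the pair was chosen and is a description. The fitted peak was 141144 normalised counts at 35 h, where the measured value was 129082. In normalised counts the largest departure was at 45 h, with 59032 measured against 83572 fitted. As a ratio, measured over fitted was 0.71 at 45 h and 1.73 at 25 h and was furthest from 1 at the earliest hours. Before 20 h the fitted values were 274 to 903 where 21.1 to 54.3 were measured. On the log2 scale the same fit left 19.6% unexplained, so the low share holds for the linear scale only. There the fits of the hairpins miR-5592, miR-786, miR-246 and miR-240 left less, at 0.581%, 2.58%, 4.22% and 12.8%. Those of let-7 and lin-4 left more, at 23.1% and 43.0%. Many further hairpins left less on that scale and others left more, so the 6th place does not carry over to it.

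The half-life depended on the hours and the scaling used. With 5 to 35 h alone it was 3.11 h, with 0.116% unexplained, and with TMM factors over all hours it was 11.9 h. The value is thus that of a curve through these points, and a constant rate of loss at all hours was not tested.

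**Figure D3:**
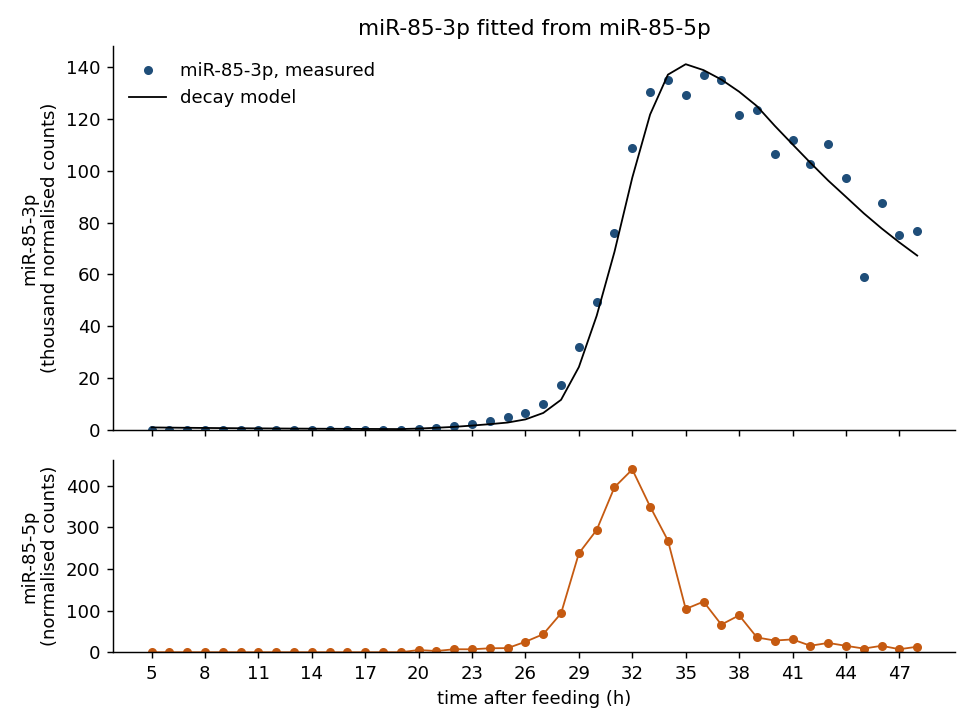
Upper axes, miR-85-3p in units of 10 to the power 3 normalised counts against time after feeding in hours, with points for the 44 libraries and a line for the model that produces the guide from the passenger. Lower axes, miR-85-5p in normalised counts, highest at 439 at 32 h, 4 h before the highest guide value of 137118 at 36 h.

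Over the 44 libraries the strands of the pair had a Pearson correlation of 0.78 on log2 normalised counts with 8 added. It was 0.94 over the 13 libraries of 20 to 32 h and 0.80 over the 16 of 33 to 48 h, values that share libraries and totals and are given as a description. The strands most like the guide among 270 others were miR-786-5p, miR-786-3p, miR-240-3p, miR-2210-3p, miR-5592-3p and miR-246-3p, all with r of 0.98 over the 44 libraries. Those most like the passenger were miR-59-5p at 0.89, miR-82-5p and miR-358-5p at 0.87, miR-59-3p and miR-66-5p at 0.86 and miR-246-5p at 0.85. None of these 12 strands was shared by both lists, but lists this short do not show that guide and passenger resemble different strands. The hairpin of miR-246 had a strand in each list. From the guide's list, miR-786-5p, miR-786-3p and miR-240-3p came 10th, 12th and 17th of 270 for the passenger (r of 0.82, 0.80 and 0.78). From the passenger's list, miR-358-5p came 16th for the guide (r of 0.93). Places of the other listed strands in the opposite ranking are not given here. The contrast of low early and high late levels weighs heavily in these values.

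The study names miR-85 together with miR-786 and miR-240, miR-359, and the pair miR-357 and miR-358 for an increase from about 25 h, a list of 9 strands of 5 hairpins that was chosen on these samples. Of these, 8 were tested and miR-357-5p, with a mean of 5.61 counts, was not. All 8 had r of 0.89 to 0.98 with miR-85-3p. The hour at which 50% of the reference was passed was 26 h for miR-357-3p, 27 h for miR-358-3p and miR-358-5p, 28 h for miR-240-5p, miR-240-3p and miR-786-3p, 29 h for miR-786-5p and 32 h for miR-359. With 31 h, miR-85-3p came later than 7 of the 8, together with miR-246-3p, which also passed 50% at 31 h. With 29 h, miR-85-5p was level with miR-786-5p and miR-246-5p.

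The late levels of these strands were spread widely. At 42 to 48 h miR-85-5p stood at 3.89% of its reference, where the passengers miR-59-5p, miR-246-5p and miR-358-5p stood at 24.1%, 33.4% and 34.1%, and miR-82-5p, miR-786-5p and miR-240-3p at 47.7%, 57.1% and 65.7%. The untested miR-357-5p was at 0 in the median of those hours. Guides of the same lists lay on both sides of miR-85-3p at 65.0%. Lower were miR-240-5p at 29.3%, miR-357-3p at 41.0%, miR-358-3p at 41.4%, miR-786-3p at 46.4% and miR-59-3p at 47.2%. Higher were miR-5592-3p at 72.4%, miR-66-5p at 74.8% and miR-246-3p at 77.4%, as were miR-2210-3p at 81.5% and miR-359 at 90.7%, which had no tested partner strand. Before the climb, at 5 to 15 h, miR-85-3p was at 0.0193% of its reference, near miR-246-3p at 0.0244% and miR-5592-3p at 0.0323%, and below miR-786-3p at 0.343% and miR-240-3p at 0.429%. These percentages also carry the height of each reference. In normalised counts the medians of the 5 strands were 26.1, 60.9, 9.83, 10.0 and 30.7 in that order, so miR-85-3p was not the lowest in level. These differences are descriptions without a test.

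**Figure D4:**
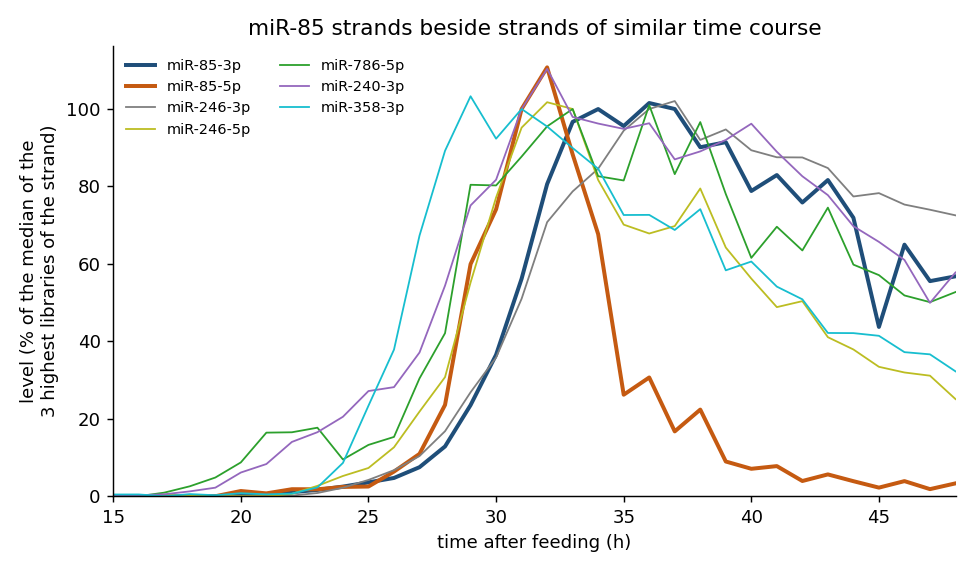
Levels of miR-85-3p and miR-85-5p and of 5 strands of similar course, each as a percentage of the median of its 3 highest libraries, against time after feeding in hours (1 library per hour). All climb between 20 and 33 h, and at 42 to 48 h miR-85-5p is at 3.89% while miR-246-5p is at 33.4% and miR-85-3p at 65.0%.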

How the data were processed

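The authors grew N2 worms at 25 °C and deposited raw counts for each mature strand, which were used throughout. Per the study's methods, adapters were trimmed with QuasR, reads were aligned to ce10 with Bowtie, the miRBase v22 annotation was lifted to that build, and reads of the same strand that started within 3 bp of a mature 5′ end were counted, so variants of length are lumped. Tool versions are not given in the sources used here. The authors also deposited log2 values made from these counts with 8 added; all 19228 matched the counts within 0.001, and they were not used for tests. All columns of the tables were mapped to a sample. Labels gave 1 library for each hour, so no samples could be paired.

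Tests covered the 272 strands whose mean count was 10 or more and left out 165. Fits were made with edgeR 4.0.16 in R 4.3.3, and alternatives with DESeq2 1.42.0, nlme 3.1.168 and limma 3.58.1. Descriptions used Python 3.11.15 with pandas 2.3.3, SciPy 1.17.1 and NumPy 2.4.6, and figures matplotlib 3.10.9. For 8 to 35 h the quasi-likelihood model (24 residual degrees of freedom) had a linear term, a cosine and a sine of 7 h period, scaled by library totals, with Benjamini-Hochberg adjustment over all tested strands. Scripts were tested on simulated data. Onset at a share of the reference was the first hour from which all libraries up to the highest were at or above that share. Half-lives were searched from 0.1 to 200 h. Alternatives were other scalings, tests, filters, periods, windows and trends, and leaving out single libraries. The spline over 22 to 35 h was chosen after seeing the data.

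Members and lists were chosen with earlier results of these data known. Named strands were the members, the 6 tested strands most correlated with each, and those the study names beside miR-85; miR-35 family guides are given as a sum, and strands that share a seed were not looked for. Coordinates are from WBcel235, which is not the build of the authors, and none were converted.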

Additional observations from a re-analysis of the deposited data

How the results depend on the processing

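The guide stayed without a rhythm call in all 15 alternatives (amplitude 0.13 to 0.54) and in 28 fits with 1 library left out (0.35 to 0.59). The passenger stayed uncalled in 13 alternatives (0.06 to 1.33) and was called with periods of 7.5 h (0.87) and 8 h (1.02), and single libraries left out gave 0.56 to 0.80, past the threshold only without 35 h. The ratio stayed uncalled in 5 alternatives (amplitude 0.09 to 0.53) and was just past the threshold with a period of 8 h (0.73). Its amplitude was 0.15 to 0.51 with single libraries left out. The uncalled change of the guide over 5 to 10 h had the opposite sign with TMM factors (-0.068) and DESeq2 size factors (-0.23), and ranged from -0.31 to 0.38 with single libraries left out. The half-life was 3.11 h over 5 to 35 h, 9.45 h without the miR-35 family guides in the totals, 11.9 h with TMM factors and 9.04 h by least squares on the log2 scale. The late fall of the passenger was 20.9-fold with TMM factors. The cause of these shifts was not tested. TMM scaling moved the median of all strands from 8 to 13 h to 30 to 35 h by 0.11 log2 units, against 0.06 with library totals. No paired analysis was possible because each hour has 1 library. Depth limits the passenger most, with 0 counts before 20 h and 7 to 21 counts per library from 42 h.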

Other observations

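At 45 h the guide lay 0.64 log2 units below the mean of the 44 h and 46 h libraries (a difference of -0.64), with 66955 counts. The passenger differed by -0.48 there, on 10 counts against 17 at 44 h and 17 at 46 h, with Poisson intervals that overlap. The median of the 272 tested strands differed by -0.07. A dip at least as large as that of the guide was seen in 33 of the 272 strands (12.1%). The next largest deviation of the guide from its neighbours at 33 to 47 h was 0.40, at 46 h. The 45 h library is itself a neighbour there, so this value is not independent of the dip. The 45 h library had 11990015 counts, above the median total. In the shallow 38 h library the guide differed from its neighbours by -0.09 and the passenger, with 14 counts there, by 0.76.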
